A study of Mus musculus with 148 samples.

Results

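The genes followed here were 8 interferon-induced GTPase genes: Gbp2, Gbp3, Gbp4, Gbp5 and Gbp7 of the guanylate-binding protein family, and Igtp, Irgm1 and Iigp1 of the immunity-related GTPases. They were taken by name as 8 of the 52542 gene rows of a single-cell RNA-seq series on the immune microenvironment of breast cancer lung metastasis, and all 8 had UMIs (unique molecular identifiers, each counting 1 captured mRNA molecule). Counts were summed over the cells of 1 mouse, 1 tissue and 1 annotated label, wherever at least 10 cells were present, and expressed as CPM, that is UMIs of a gene per 1000000 UMIs of the sum.

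All mice were females of the PA-GFP C57BL/6 strain, whose cells carry a photoactivatable GFP. EO771-tdTomato cells, a mouse breast cancer line, were injected into the mammary gland at 8 weeks of age, and the primary tumor was later resected, so that lung metastases arose on their own. The 63 samples from 27 mice fell into 8 tissues. Normal lungs came from 3 mice without a tumor, Pre-MET lungs from 3 mice still bearing the primary tumor, and Relapse-free lungs from 6 mice in which no metastasis was found after resection. Mice with metastases gave MET (13 mice) and Distal normal tissue (14 mice) of the same lungs, as well as photoactivated MET Core (13 mice) and MET Invasive margin (7 mice). Primary tumors came from 4 mice, of which 3 also gave the Pre-MET lungs. Cells were sorted as CD31- and CD45+, or as CD31- and GFP+ after photoactivation. Some Relapse-free plates were also gated on photoactivated cells, so comparisons with Relapse-free lungs join both gates. The model rests on 1 tumor cell line in 1 mouse strain, and tissue without visible tdTomato could still hold tumor cells.

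The 23425 immune cells held 44678167 UMIs, of which 34102 belonged to the 8 genes, and 6862 cells (29.29%) had at least 1 such UMI. Samples held 55 to 1974 cells, and the median number of UMIs per cell was 3524.5 in Primary tumors against 812.25 to 1200.75 in the other tissues. Normal lungs were the only plates of their sequencing batch, so the Normal group and its batch cannot be told apart. The 592 wells left empty held 8490 UMIs in all, of which 7 belonged to the 8 genes. Most labels carried their defining markers: summed CPM of 4 T cell markers averaged 2076 to 4776 over the T cell labels and 7.445 to 39.76 over the monocyte and macrophage labels. The label Neut_PMN-MDSC held 17720 summed CPM of 4 neutrophil markers, against 96290 or more in the other neutrophil labels. DC_cDC1 held 806.9 summed CPM of cDC1 markers and 1140 of cDC2 markers, and Mon_Ace held 2511 of monocyte markers and 2570 of macrophage markers, so these 2 labels were not set apart by the markers used here.

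Interferon-gamma binds its receptor (Ifngr1 and Ifngr2) and signals through the kinases Jak1 and Jak2, and both GTPase families are induced in the cells that respond, together with the transcription factor Irf1. The encoded proteins are large GTPases that gather on membranes, best known for attacking the vacuoles in which intracellular bacteria and parasites hide. Gbp2 coats such vacuoles, Gbp5 promotes inflammasome assembly, and Gbp7 has been linked to the phagocyte oxidase. Igtp and Irgm1 are regulatory members that keep effector GTPases such as Iigp1 off the membranes of the cell itself. Type I interferon also induces many of them, so their mRNA serves as a general sign of interferon exposure in leukocytes.

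Gbp5, Gbp7, Gbp3 and Gbp2 lie in 1 cluster on chromosome 3, at 142493978-142522344, 142530342-142550149, 142560026-142573209 and 142620602-142638008 of mm10 (GENCODE vM21, plus strand). Gbp4 lies on chromosome 5 (105115767-105139586, minus strand), Irgm1 and Igtp on chromosome 11 (48861968-48871683, minus strand, and 58199556-58207591, plus strand), and the position of Iigp1 is not given here. All 8 are protein coding. The genes are close paralogs, and since reads with multiple mapping positions were excluded by the authors, levels were compared between cells for 1 gene. UMI counts and shares of several genes side by side are given as detected, since they also depend on how well each gene maps.

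RefSeq promoters (250 bases before to 50 after the start site, GRCm38.p6) were found for 6 of the 8 genes, by symbol. The promoters of 4 are shown because Gbp2, Igtp and Gbp7 are the genes with a called difference between tissues below and Irgm1 had the most UMIs counted. Capitals mark the letters GAAA and GAAA with 2 bases of any kind between them, the core of the interferon-stimulated response element (ISRE), and the letters TTC and GAA with 3 bases of any kind between them, the core of the gamma-activated site (GAS), on either strand. The windows are chr3:142620413-142620712 (plus strand) for Gbp2, chr11:58199306-58199605 (plus strand) for Igtp, chr3:142530086-142530385 (plus strand) for Gbp7 and chr11:48871371-48871670 (minus strand) for Irgm1.
Gbp2: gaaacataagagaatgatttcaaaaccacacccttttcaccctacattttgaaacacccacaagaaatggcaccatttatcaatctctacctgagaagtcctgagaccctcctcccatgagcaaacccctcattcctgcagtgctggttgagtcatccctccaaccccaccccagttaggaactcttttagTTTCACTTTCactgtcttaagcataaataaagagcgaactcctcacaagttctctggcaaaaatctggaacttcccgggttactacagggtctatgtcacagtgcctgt
Igtp: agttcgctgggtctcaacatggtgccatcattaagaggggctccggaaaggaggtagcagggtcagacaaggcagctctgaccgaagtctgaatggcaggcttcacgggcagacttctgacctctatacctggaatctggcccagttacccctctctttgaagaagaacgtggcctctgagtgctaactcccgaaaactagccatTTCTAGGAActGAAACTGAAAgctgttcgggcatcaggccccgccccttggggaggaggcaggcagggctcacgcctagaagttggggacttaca
Gbp7: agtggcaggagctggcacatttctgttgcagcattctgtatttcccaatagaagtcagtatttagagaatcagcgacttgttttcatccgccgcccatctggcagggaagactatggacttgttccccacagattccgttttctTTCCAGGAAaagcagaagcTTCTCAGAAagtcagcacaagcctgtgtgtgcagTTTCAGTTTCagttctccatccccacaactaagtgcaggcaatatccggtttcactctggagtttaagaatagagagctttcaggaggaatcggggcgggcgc
Irgm1: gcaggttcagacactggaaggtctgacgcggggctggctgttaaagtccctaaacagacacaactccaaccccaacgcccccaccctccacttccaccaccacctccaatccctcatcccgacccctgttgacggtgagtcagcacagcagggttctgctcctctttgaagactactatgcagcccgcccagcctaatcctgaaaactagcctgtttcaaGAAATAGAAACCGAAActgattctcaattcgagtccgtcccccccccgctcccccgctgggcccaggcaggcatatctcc

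The ISRE letters were found in a promoter of all 6 genes, beside 3.44% of 32851 RefSeq promoters of the same length. In Gbp2 they began at -59 relative to the start site, in Gbp7 at -53, in Igtp at -34, and in Irgm1 at -30 and -24, where both matches overlap. The GAS letters were found in 3 of the 6 genes (Gbp5, Gbp7 and Igtp), beside 8.3% of all promoters. In Igtp the GAS match began at -45, just before the ISRE match, and in Gbp7 matches began at -106 and -87. Of 8 other genes of the families with a promoter in the table, 6 held the ISRE letters. A match describes letters in this window and was not tested as a binding site.

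Across cell types, the summed level of the 8 genes was highest in the labels Neut_PMN-MDSC and T_Treg, both with few samples, followed by Thbs1-expressing monocytes and Cd81-expressing macrophages, and lowest in alveolar macrophages and Camp-expressing neutrophils. These levels are a description with no test, because the labels themselves came from clustering these cells on their expression. Over the 26 of 27 labels with at least 2 sums, Neut_PMN-MDSC averaged 2410 ± 2463 summed CPM (SD, n = 5), T_Treg 1756 ± 539 (SD, n = 7), Mon_Thbs1 1601 ± 978.1 (SD, n = 25) and Mac_Cd81 1328 ± 649.9 (SD, n = 9). At the other end, Mac_Cd9, the alveolar macrophages, averaged 102.4 ± 65.26 (SD, n = 11) and Neut_Camp 66.96 ± 77.48 (SD, n = 4). These means pool tissues, and labels draw on different ones: Mac_Cd81 took 4 of its 9 sums from Primary tumors (mean 1755). In MET Core it stood at 655.1 ± 341.4 (SD, n = 3), below the mean of Mac_Isg20 there (874.5 ± 288.3, SD, n = 7). In MET, Mac_Cd81 averaged 1481 (n = 2) and Mac_Isg20 779.9 ± 552.3 (SD, n = 8). In the 5 samples with both labels, Mac_Cd81 was higher in 4 (985.6 against 766.8 summed CPM on average). No gap between neighbours in this order was larger than the SDs of both. The SDs are spreads over samples and neighbours in a sorted list lie close, so this does not decide whether neighbouring labels differ.

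**Figure D1:**
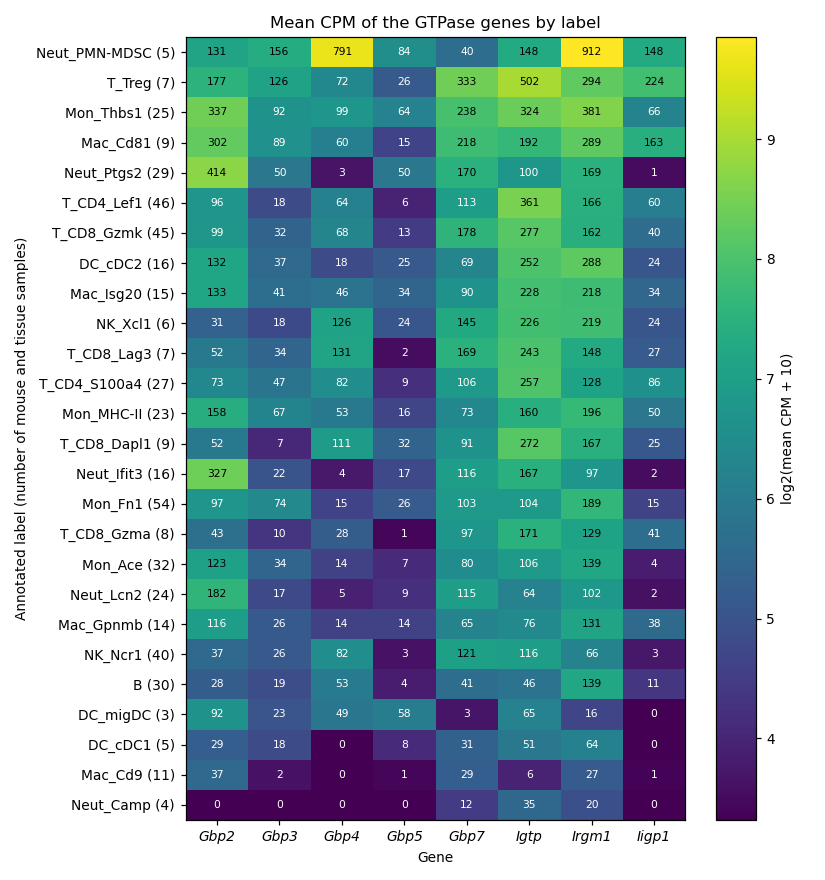
Mean CPM of each GTPase gene (columns) in each annotated label (rows, with the number of mouse and tissue samples of at least 10 cells in parentheses); the colour is log2(mean CPM + 10), the printed number is the mean CPM, and rows are ordered by the summed level. The top rows run from Neut_PMN-MDSC to Mac_Cd81. Igtp is bright in every T cell row, and also in Mon_Thbs1, DC_cDC2, Mac_Isg20 and NK_Xcl1. Gbp2 is brightest in the rows Neut_Ptgs2, Mon_Thbs1, Neut_Ifit3 and Mac_Cd81, and Mac_Cd9 and Neut_Camp are dark throughout.

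The leading label rested on few cells. The 5 Neut_PMN-MDSC sums held 10 to 30 cells each and read 321.4, 752.6, 1484, 3105 and 6388 summed CPM, the last from 88 UMIs in MET of mouse 31, where Gbp4 alone stood at 3775 CPM. The most Gbp4 UMIs found in 1 immune cell were 52, so this value may rest on 1 or a few cells. By the median over samples T_Treg led instead, at 1775 summed CPM (lowest 1013, highest 2509) against 1484. The 7 T_Treg sums came from Primary tumors (4), MET Core (2) and margin (1), with 15 to 27 cells each, so that tissue and label are partly joined. Within Primary tumors alone, T_CD8_Gzmk averaged 2357 ± 75.2 summed CPM (SD, n = 3) and T_Treg 1756 ± 623.9 (SD, n = 4). T_Treg, regulatory T cells that restrain other T cells, had the highest mean of all labels for Igtp (502.5 ± 328.5 CPM, SD, n = 7), Gbp7 (333.3 ± 85.82) and Iigp1 (224.3 ± 155). In the same 7 samples the T_CD4_Lef1 cells averaged 498.3 CPM of Igtp, which was higher in T_Treg in 3 of 7, and 147.5 CPM of Gbp7, which was higher in T_Treg in 7 of 7.

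The mix of the 8 genes varied between labels. Igtp, a regulatory IRG, gave 25.46% to 39.54% of the member UMIs in the 7 T cell labels, 28.22% in NK_Xcl1 and 23.78% in NK_Ncr1. In the 8 monocyte and macrophage labels it gave 11.39% to 25.52%. Gbp2 gave 31.94% to 37.42% in the neutrophil labels Neut_Ptgs2, Neut_Lcn2 and Neut_Ifit3, 8.23% in Neut_PMN-MDSC, none of the 11 member UMIs of Neut_Camp, and 6.786% to 11.38% in the T cell labels. Irgm1 gave 42.62% in B cells, 41.15% in Neut_PMN-MDSC and 34.19% in Mon_Fn1. With few UMIs it gave 45.45% in Neut_Camp and 38.71% in DC_cDC1 (31 member UMIs). Gbp7 gave 30.85% in NK_Ncr1 and 15.34% in NK_Xcl1, and 31.65% of the 79 member UMIs of Mac_Cd9. Iigp1, the effector IRG, was barely detected in most neutrophil labels, at a mean of 1.361 CPM in Neut_Ptgs2, with 26 of its 29 samples at 0, and of 2.163 in Neut_Lcn2 and 1.676 in Neut_Ifit3. In Neut_PMN-MDSC it averaged 148.4 CPM, all from 1 of the 5 samples. These shares pool the UMIs of a label over mice and tissues, so samples with more UMIs weigh more, and the spread between mice is not given.

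Each gene was detected in a small part of the cells. UMIs of Irgm1 were found in 9.89% of all immune cells, of Igtp in 9.56%, of Iigp1 in 2.13% and of Gbp5 in 1.47%. The 235 cells (about 1 in 100) with the most UMIs of a gene held 38.7% of all Irgm1 UMIs but 82.5% of Iigp1 and 88.2% of Gbp5 UMIs. Any UMI was found in 500 cells for Iigp1 and 345 for Gbp5, so their larger shares follow in part from low detection. Cells were ranked by UMIs of the gene without regard to their depth. A single cell held 83 Gbp2 UMIs, and the 61 Iigp1 UMIs of 1 Relapse-free monocyte were most of the 69 found in that group. Means of Iigp1 and Gbp5 in small sums can therefore rest on 1 or a few cells.

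Inside the same samples, Mon_Thbs1 held more of these transcripts than the fibronectin-expressing Mon_Fn1 monocytes. In the 22 mouse and tissue samples with both labels, the summed level averaged 1536 CPM in Mon_Thbs1 and 905.4 CPM in Mon_Fn1, and was higher in Mon_Thbs1 in 15 of 22. Igtp was higher in Mon_Thbs1 in 18 of the 22 samples (307.9 against 146.8 CPM on average) and Gbp4 in 17 (82.45 against 34.96 CPM), whereas Gbp3 was higher in 9 and lower in 12 (96.11 against 98.54 CPM). Mac_Cd9 was lower than Mon_Fn1 in 9 of 10 shared samples, at 103.5 against 450.4 summed CPM.

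In monocytes, the circulating precursors that enter inflamed tissue, Gbp2 and Igtp were higher in MET than in the Distal normal tissue of the same lungs. Gbp2 rose 3.39-fold and Igtp 2.57-fold, Gbp2 was higher in all 13 mice with both tissues and Igtp in 12 of them, while Gbp7 and Irgm1 did not pass the test. The comparison asks how the immune cells of a metastasis differ from those of the lung around it.

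Gbp2 in MET monocytes read from 44.16 to 669.1 CPM (median 139.5), with a mean of 212.5 ± 166.2 (SD, n = 13). In Distal monocytes it read from 0 to 184.1 CPM (median 46.34), with a mean of 54.02 ± 44.91 (SD, n = 14). The ranges overlapped, and 5 of 13 MET samples lay above every Distal sample. The log2 fold change was 1.76 (SE 0.38, edgeR quasi-likelihood test, Benjamini-Hochberg adjusted p = 0.00485). Igtp in MET monocytes read from 40.41 to 338.7 CPM (median 144.8), with a mean of 162 ± 98.7 (SD, n = 13), and in Distal monocytes from 0 to 145.9 CPM (median 51.4), with a mean of 62.36 ± 43.99 (SD, n = 14). For Igtp, 6 MET samples lay above every Distal sample, and mouse 34 was the one with less Igtp in MET. The log2 fold change was 1.36 (SE 0.33, edgeR adjusted p = 0.0216). These 2 members were among 31 genes called (adjusted p below 0.05) of 2098 tested in monocytes (1.48%), and all 31 were higher in MET.

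**Figure D2:**
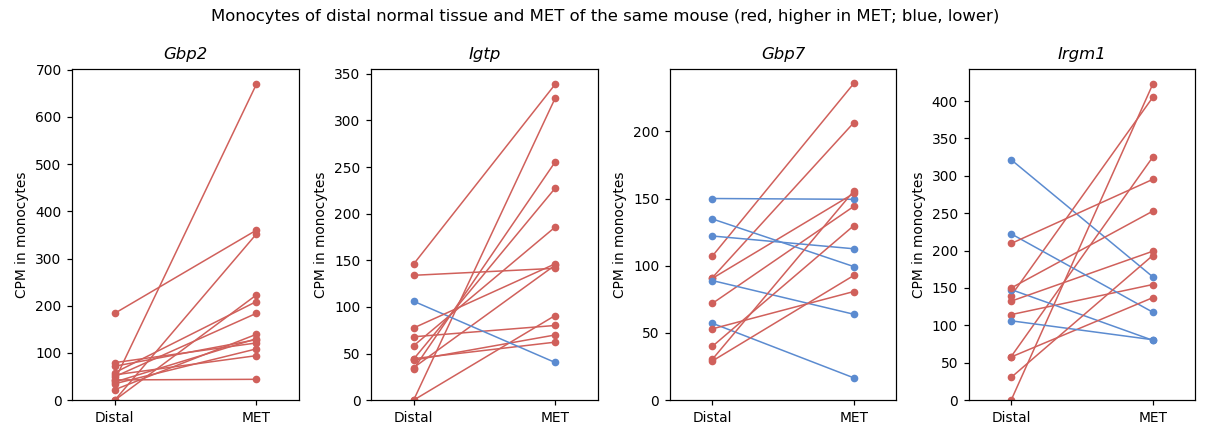
CPM of Gbp2, Igtp, Gbp7 and Irgm1 in monocytes of Distal normal tissue and MET, with 1 line for each of the 13 mice with both; red lines go up and blue lines go down. Gbp2 goes up in all 13 mice and Igtp in 12, whereas Gbp7 goes down in 5 and Irgm1 in 4.

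Of the 8 genes, 4 passed the filter on low counts in this comparison, which edgeR's filterByExpr set for each comparison by its depth and number of samples. Gbp7 had a log2 fold change of 0.70 (SE 0.31, edgeR adjusted p = 0.463) and was higher in MET in 8 of 13 mice. Irgm1 had a log2 fold change of 0.60 (SE 0.30, edgeR adjusted p = 0.634) and was higher in 9 of 13. The other 4 were not tested. Among them Gbp4 averaged 46.18 CPM in MET and 4.239 in Distal tissue and was higher in MET in 11 mice with 2 ties, and Iigp1 averaged 39.39 and 2.269 CPM and was higher in 10 mice with 3 ties. Gbp5 (34.73 and 7.796 CPM) and Gbp3 (71.97 and 50.25 CPM) were higher in 8 and 10 mice. The sum of the 8 genes averaged 910.6 ± 482 CPM in MET and 403.3 ± 166.5 in Distal tissue, and only mouse 34 had less in MET.

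The mouse is shared by both tissues, and a mouse block kept both calls when the same genes were tested: Gbp2 then had a log2 fold change of 1.94 (edgeR adjusted p = 9.9e-05) and Igtp of 1.47 (edgeR adjusted p = 0.00184). With the filter applied anew to the 13 pairs, Igtp was not tested. Leaving out each of the 27 samples in turn, with the same genes tested, kept the Gbp2 call in all 27 fits (log2 fold changes 1.49 to 2.19). The Igtp call held in 25 (log2 fold changes 1.23 to 1.54 over all 27) and was lost without MET of mouse 28 (edgeR adjusted p = 0.0566) or of mouse 33 (edgeR adjusted p = 0.0526). With sequencing batch as a term both calls held and Gbp7 was called as well (log2 fold change 1.03, edgeR adjusted p = 0.0172). On cells with at least 1000 UMIs, with the same genes tested, Gbp2 was called (log2 fold change 1.74, edgeR adjusted p = 0.0311) and Igtp was not (log2 fold change 1.47, edgeR adjusted p = 0.0572).

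The make-up of the monocytes differed between the tissues as well. Mon_Thbs1, the monocyte label with the most GTPase transcripts, made up 5.284% ± 4.769 (SD, n = 14) of Distal monocytes and 25.47% ± 18.84 (SD, n = 13) of MET monocytes, and Mon_Fn1 made up 68.75% ± 16.61 and 51.36% ± 19.19. Within Mon_Fn1 alone, Gbp2 averaged 142.7 ± 135.7 CPM in MET and 42.06 ± 34.45 in Distal tissue (SD, n = 13 each), and Igtp 79.6 ± 70.18 and 54.62 ± 42.92. Neither passed the filter within the label, and Irgm1, the 1 member tested there, had a log2 fold change of 0.07 (SE 0.32, edgeR adjusted p = 1), with 0 of 1292 genes called and 17 at an unadjusted p below 0.05. Only 1 Distal sample held 10 Mon_Thbs1 cells, so that label could not be compared. The part of the label shift in the lineage difference was not tested.

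T cell and NK cell markers were low in monocytes of both tissues. Summed T cell markers had a median of 14.08 CPM in MET (0 to 46.41) and 0 in Distal tissue (0 to 29.16), and NK cell markers a median of 0 in both (up to 32.05 and 29.16). Summed alveolar macrophage markers had a median of 1609 CPM in MET and 2462 in Distal tissue, and neutrophil markers 835.4 and 986.8, so both were present in either tissue and lower in MET by the median. Their part in the difference was not tested. The median monocyte held 1313 UMIs in MET and 1426 in Distal tissue.

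**Figure D3:**
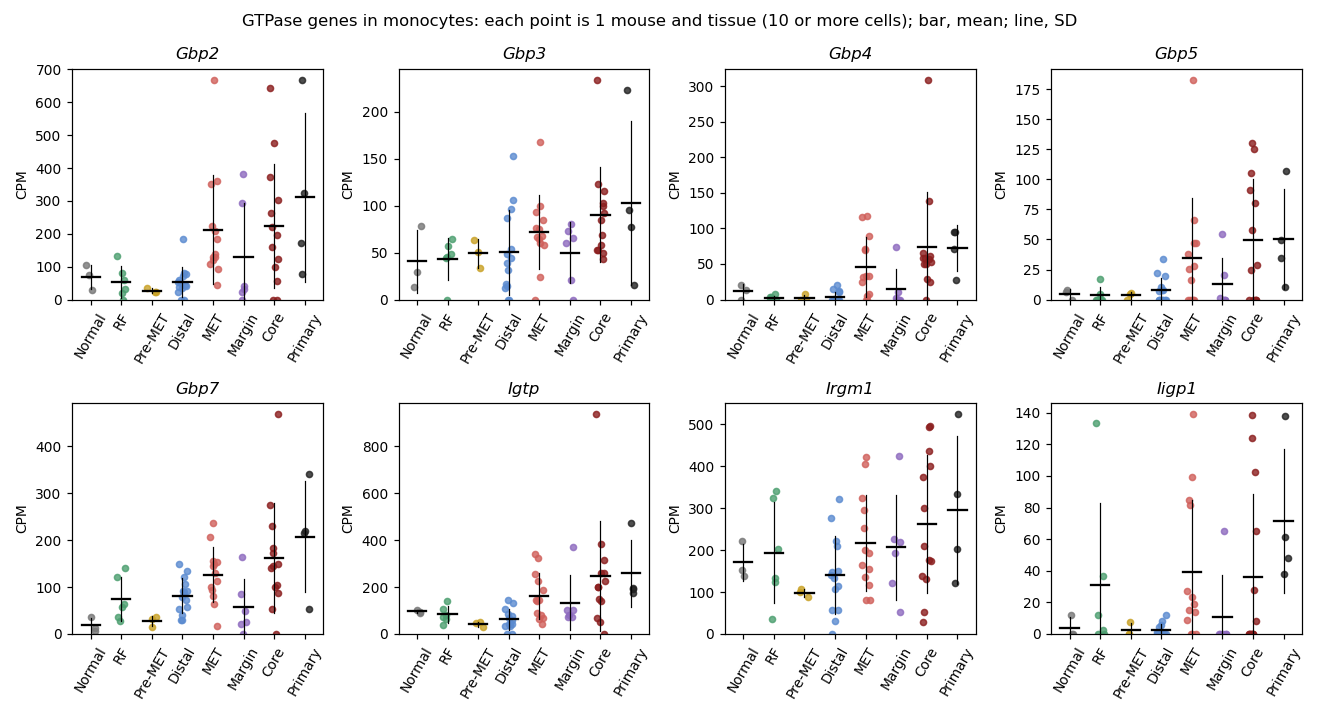
CPM of the 8 genes in monocytes by tissue (RF, Relapse-free; Distal, Distal normal tissue; Margin and Core, MET Invasive margin and MET Core), with 1 point per mouse, a bar at the mean and a line of 1 SD above and below, ended at 0. Gbp2, Gbp4 and Igtp sit higher in MET, Core and Primary than in Normal, Pre-MET and Distal, with wide ranges that overlap.

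In macrophages, with fewer samples and cells, no member was called. Igtp averaged 155.1 ± 117.4 CPM in MET (SD, n = 9) and 9.449 ± 23.15 in Distal macrophages (SD, n = 6), where it rested on 2 UMIs, and was higher in MET in 5 of 5 mice with both. Gbp4 was found in every MET sample (5.837 to 51.98 CPM) and had no UMI in the 6 Distal samples, whose 89 cells do not allow a low level to be seen, and Gbp2 averaged 181.4 and 23.6 CPM. Irgm1 was the only member that passed the filter, with a log2 fold change of 1.45 (SE 0.60, edgeR adjusted p = 0.151), in a lineage where 123 of 1289 genes were called (9.54%). With no filter, Gbp2, Igtp and Irgm1 were called (edgeR adjusted p = 0.000689, 0.000756 and 0.0483). Mac_Cd9, which had the lowest level of any macrophage label, made up 63.59% ± 25.18 of Distal macrophages and 7.645% ± 8.881 of MET macrophages, and its part in the difference was not tested.

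In T cells the mean level of Igtp was lower in MET, with no test. It averaged 327.6 ± 161.9 CPM in Distal T cells and 207.2 ± 132.1 in MET T cells (SD, n = 13 each), was lower in MET in 10 of 12 mice, and did not pass the filter. T_CD4_Lef1 made up 49.03% ± 8.169 of Distal and 39.13% ± 12.43 of MET T cells (SD), and T_CD8_Lag3 2.646% and 9.751%. T_Treg, the label with the highest mean of Igtp, made up 0.135% and 4.068%. The part of these shifts was not tested. In neutrophils Gbp2 averaged 260.8 ± 192.8 CPM in MET and 227.3 ± 260.6 in Distal tissue (SD, n = 9 each), with a log2 fold change of 0.33 (SE 0.49, edgeR adjusted p = 0.999), beside 0 of 715 genes called and 26 at an unadjusted p below 0.05. The Distal mean includes mouse 34 at 830.4 CPM, and within the 6 mice with both tissues Gbp2 was higher in MET in 5, with a median difference of 222.7 CPM. In NK cells, B cells and DC no member passed the filter. The sum of the 8 genes in DC read 176 to 1281 CPM in MET (median 625.7, n = 10) and 117, 465.9 and 542.5 in the 3 Distal samples.

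Tests of the difference between lineages, with each mouse and tissue sample as a block, made no call among the 8 genes. The MET change of Igtp in monocytes minus that in T cells was 1.90 on the log2 scale (SE 0.45, edgeR interaction term, adjusted p = 0.087), where 0 of 1472 genes were called (0%) and 81 had an unadjusted p below 0.05. For Gbp2 the monocyte change minus the neutrophil change was 1.15 (SE 0.56, edgeR adjusted p = 0.924; 0.0309% of genes called), and for Igtp the monocyte change minus the macrophage change was -2.09 (SE 1.02, edgeR adjusted p = 0.289; 3.11% called). With the mouse also paired across the tissues within each lineage, an alternative chosen after seeing the data, the Igtp difference between monocytes and T cells was 2.23 over 12 mice and was called (edgeR adjusted p = 0.00311), beside 15 of 1472 genes (1.02%). No other difference between lineages was called by that fit, which leaves the Gbp2 rise in monocytes not shown to differ from the change in other lineages.

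**Figure D4:**
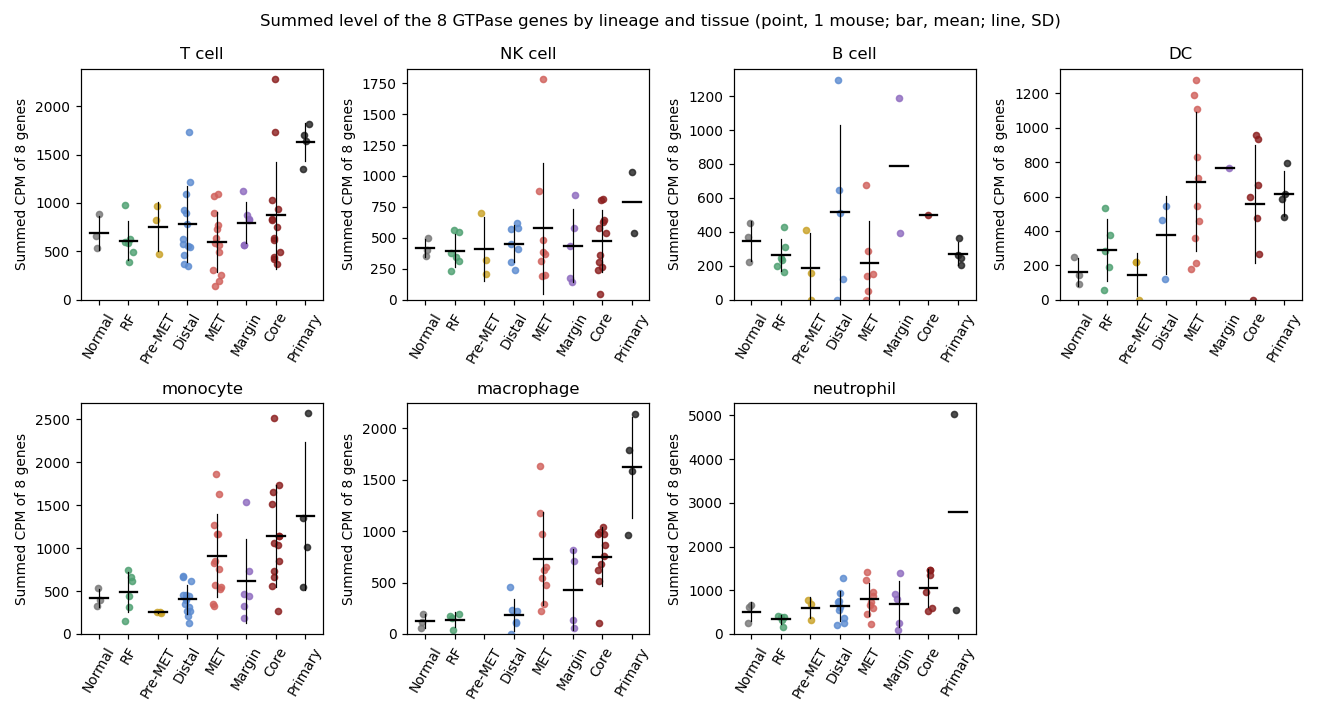
Summed CPM of the 8 genes by lineage and tissue, with 1 point per mouse with at least 10 cells, a bar at the mean and, for 3 or more points, a line of 1 SD above and below, ended at 0. Monocytes and macrophages are higher in MET and Core than in Normal and Distal, T cells have their highest mean in Primary (1351 to 1817 there, within a Core range that reaches 2282), and 1 Primary neutrophil sum stands at 5038.

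Core and margin of metastases did not differ by the unblocked test, and a call for Gbp2 in the paired test was lost when any of 3 of the 5 paired mice was left out. Gbp2 in Core monocytes read from 0 to 644.3 CPM (median 195), with a mean of 224.1 ± 189.1 (SD, n = 13), and in margin monocytes from 0 to 381.5 (median 36.59), with a mean of 128.3 ± 164.9 (SD, n = 6). The log2 fold change was 0.93 (SE 0.69, edgeR adjusted p = 0.814), with 0 of 1025 genes called and 84 at an unadjusted p below 0.05. Igtp (log2 fold change 0.71, edgeR adjusted p = 0.814) and Irgm1 (0.40, adjusted p = 0.927) were not called either.

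Within the 5 mice that had monocytes of both regions, Gbp2, Gbp4, Gbp5 and Gbp7 were each higher in the Core in 5 of 5 mice, and so was the sum of the 8 genes, with a median difference of 817 CPM. Gbp3, Igtp and Iigp1 were each higher in the Core in 4 of 5 mice and Irgm1 in 3 of 5. With mouse as a block, Gbp2 had a log2 fold change of 2.45 (edgeR adjusted p = 0.0177), and 58 of 1354 genes were called (4.28%). With the genes of the unblocked fit the value was 2.47 (edgeR adjusted p = 0.0305). The margin sample of mouse 17 has the photoactivation target label NON-MET. Without mouse 17 the blocked value was 1.92 and was no longer called (edgeR adjusted p = 0.15), and the call was also lost without mouse 26 (2.45, edgeR adjusted p = 0.109) or mouse 31 (2.36, edgeR adjusted p = 0.125). Without mouse 36 Igtp was called as well (log2 fold change 1.93, edgeR adjusted p = 0.0105). In the 4 mice other than mouse 17, Gbp2 read 195, 219.3, 373 and 476.5 CPM in their Core and 32.32, 0, 40.87 and 381.5 CPM in their margin (mice 26, 28, 31 and 36). Mon_Thbs1 made up 43.66% ± 23.76 of Core monocytes (SD, n = 13) and 11.71% ± 12.08 of margin monocytes (SD, n = 6). Pairs of the other lineages are given with no test. In T cells the sum of the 8 genes was higher in the Core in 3 of 5 mice. There Gbp2 and Iigp1 were higher in 5 of 5 (median differences 130.1 and 102.9 CPM), and Gbp5, Gbp7 and Irgm1 in 4 of 5. Gbp4 was higher in 3 of 5, and Gbp3 and Igtp in 2 of 5. In neutrophils the sum of the 8 genes was higher in 4 of 4 (median difference 446.7 CPM). Neut_PMN-MDSC made up 19.99% ± 13.24 of Core neutrophils (SD, n = 6) and 0.4665% ± 1.043 of margin neutrophils (SD, n = 5). Its part in the neutrophil difference was not tested. In T cells (1 member tested) and macrophages (3 members tested) no member and no other gene was called (0%), with 24 of 1195 and 178 of 1743 genes at an unadjusted p below 0.05.

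In macrophages, Primary tumors exceeded the metastasis Core in Gbp7. The 4 Primary samples read 466.8, 432.5, 149 and 368 CPM (mice 8, 9, 10 and 38), and the 10 Core samples from 20.75 to 254.8 CPM (median 77.73), with a mean of 92.76 ± 64.45 (SD). In 3 of the 4 Primary samples the value lay above every Core sample, and mouse 10 lay within the Core range. The difference was 3.71-fold (log2 fold change 1.89, SE 0.42, edgeR adjusted p = 0.00782), and 98 of 2162 genes were called (4.53%), of which 36 were higher in Primary (1.67%). The tissues mostly came from different sequencing batches, and with batch as a term the value stayed at 1.89 and was no longer called (edgeR adjusted p = 0.404). For the 7 samples with plates of more than 1 batch, the batch with most cells was the term. On cells with at least 1000 UMIs it was 1.69 and not called (edgeR adjusted p = 0.064). Leaving out each of the 14 samples in turn, with the same genes tested, kept the call in 13 fits and lost it without Primary mouse 9 (1.76, edgeR adjusted p = 0.0502). Core cells were sorted after photoactivation, and the study's methods give different dissociation programs for lungs and tumors. In every comparison of Primary with Core, these steps and the tissue cannot be told apart.

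Across the tissues, the sum of the 8 genes in macrophages averaged 123.6 ± 68.75 CPM in Normal lungs (SD, n = 3), 140.6 ± 71.23 in Relapse-free lungs (SD, n = 4) and 188.6 ± 155.8 in Distal tissue (SD, n = 6). It averaged 732.2 ± 453.5 CPM in MET (SD, n = 9), 431.4 ± 390.2 in the margin (SD, n = 4), 753.2 ± 287.4 in the Core (SD, n = 10) and 1621 ± 493.5 in Primary (SD, n = 4). The values of Normal and Relapse-free lungs (up to 195.4) all lay below those of MET (225 or more), and this was not tested. Mac_Cd9, the macrophage label with the lowest level, made up 92.58% ± 4.175 of Normal and 83.52% ± 4.032 of Relapse-free macrophages (SD). It made up 7.645% ± 8.881 in MET and 0.4837% ± 1.022 in the Core (SD), and its part in these values was not tested.

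**Figure D5:**
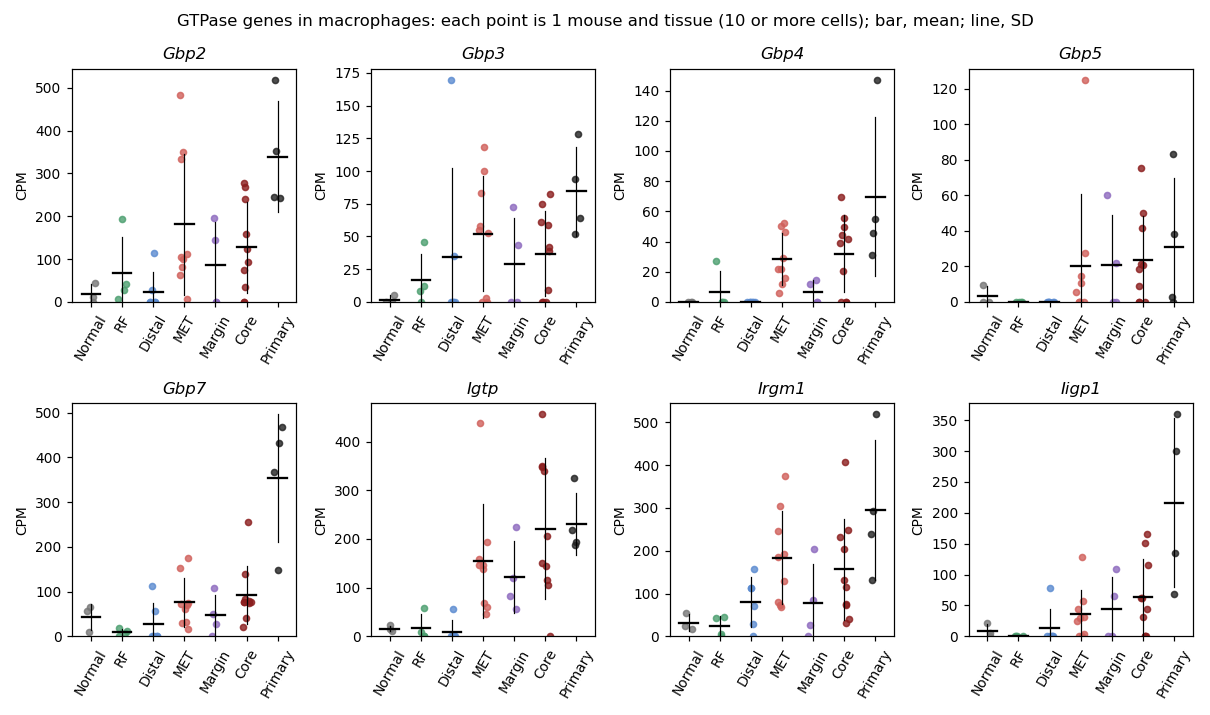
CPM of the 8 genes in macrophages by tissue (RF, Relapse-free; Distal, Distal normal tissue; Margin and Core, MET Invasive margin and MET Core), with 1 point per mouse, a bar at the mean and a line of 1 SD above and below, ended at 0; Pre-MET lungs had too few macrophages. Gbp7 in Primary stands at 149 to 466.8, Igtp overlaps between Core and Primary, and most genes sit near 0 in Normal, RF and Distal.

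In these macrophages 4 other members were tested and not called. Iigp1 had a log2 fold change of 1.78 (SE 0.59, edgeR adjusted p = 0.0866), Gbp2 of 1.22 (adjusted p = 0.234), Irgm1 of 0.84 (adjusted p = 0.409) and Igtp of 0.12 (SE 0.50, adjusted p = 0.945). Igtp averaged 230.8 ± 63.87 CPM in Primary (SD, n = 4) and 221.5 ± 143.9 in Core (SD, n = 10), and the sign of its difference turned under other settings. The median macrophage held 7107.5 UMIs in Primary and 1417 in Core, and Mac_Cd81 made up 80.9% ± 7.939 and 19.68% ± 9.081 of the macrophages. The part of both in these values was not tested.

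In T cells, all 4 Primary sums of the 8 genes (1817, 1351, 1636 and 1703 CPM) lay in the upper part of the Core range (369.9 to 2282). Gbp7 averaged 270.3 ± 58.76 CPM in Primary (SD, n = 4) and 112.2 ± 79.87 in Core (SD, n = 13), with a log2 fold change of 1.20 (SE 0.43, edgeR adjusted p = 0.134), and Igtp 558.5 ± 238.8 and 325.1 ± 218.8, with a log2 fold change of 0.86 (SE 0.40, edgeR adjusted p = 0.283). None of the 5 members tested was called, beside 13 of 2197 genes (0.592%). Gbp3, not tested, read 75.78 to 140.4 CPM in Primary T cells and 0 to 59.53 in Core, with no overlap. T_Treg made up 21.52% ± 8.639 of Primary T cells (SD, n = 4) and 6.323% ± 4.293 of Core T cells (SD, n = 13). T_CD8_Gzmk made up 16.02% and 34.62%. The median T cell held 2006.5 UMIs in Primary and 948.5 in Core, and the tissues mostly came from different sequencing batches. The part of these in the T cell values was not tested. In monocytes none of the 4 members tested was called, beside 27 of 1835 genes (1.47%).

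In monocytes the sum of the 8 genes was lower in Pre-MET than in Normal lungs, with no member called. The Normal group and its sequencing batch cannot be told apart in this comparison. The sum of the 8 genes read 244.1, 254.1 and 257.2 CPM in the 3 Pre-MET lungs, and 322.7, 530.2 and 395 in the 3 Normal lungs, with no overlap. Igtp read 29.3, 49.88 and 45.39 CPM in Pre-MET and 95.61, 90.43 and 103.9 in Normal monocytes, with a log2 fold change of -1.24 (SE 0.47, edgeR adjusted p = 0.16). Irgm1 read 107.4, 99.75 and 86.99 CPM against 137.4, 222 and 152.4, with a log2 fold change of -0.85 (SE 0.33, edgeR adjusted p = 0.18). Gbp2 read 21.97, 23.75 and 35.93 CPM against 29.88, 73.98 and 103.9, with a log2 fold change of -1.35 (SE 0.61, edgeR adjusted p = 0.259). None of the 5 members tested was called, 3 of them had an unadjusted p below 0.05, as had 894 of all 4953 genes, and 214 of these genes were called (4.32%). The make-up of the monocytes differed too, and its part was not tested: Mon_Ace made up 59.02% ± 4.142 in Normal and 22.62% ± 4.011 in Pre-MET lungs (SD, n = 3 each), and Mon_Fn1 23.85% and 69.61%. Gbp7 (0.41) and Gbp3 (0.16) had small positive log2 fold changes (edgeR adjusted p = 0.844 and 0.931). In Pre-MET against Normal T cells none of 4 members tested was called, beside 1.74% of 3218 genes, and in NK cells the 1 member tested was not called, beside 0% of 1579 genes (137 at an unadjusted p below 0.05).

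Relapse-free lungs and Distal normal tissue gave no call among the 8 genes in any lineage. In Relapse-free monocytes Gbp7 averaged 74.68 ± 46.2 CPM (SD, n = 6) against 18.62 ± 16.1 in Normal monocytes (SD, n = 3), with an edgeR adjusted p of 0.527, beside 4 of 4884 genes called (0.0819%). Distal and Relapse-free monocytes were close for Gbp7 (81.85 ± 37.86 and 74.68 ± 46.2 CPM, edgeR adjusted p = 0.99), and 21 of 3467 genes were called (0.606%). In the other lineages with a member tested, 0.04% of genes were called in neutrophils and 0.587% in T cells between Distal and Relapse-free tissue, 0.0577% in neutrophils between Relapse-free and Normal lungs, and 0% elsewhere. The summed level averaged 486.9 ± 229.7 CPM in Relapse-free monocytes and 416 ± 105.3 in Normal monocytes. Comparisons that share Normal, Core or Distal samples are not independent of each other.

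The ligand itself was nearly absent from the counts. Ifng had 4 UMIs in all 23425 cells, while Ifngr1 had 20798, Ifngr2 5593 and Irf1 5961. Such counts depend on capture and on how well each gene maps, so the Ifng count does not show how much ligand was made. Ifngr2, the signalling chain of the receptor, averaged 1.913 CPM in NK_Ncr1 and 5.18 in T_CD8_Gzmk but 147.4 in Mon_Thbs1 and 235.8 in Neut_Ifit3. Ifngr1 averaged 1059 CPM in NK_Ncr1 and 724.7 in T_CD8_Gzmk, against 281 in Mon_Thbs1.

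Some other interferon-induced genes also differed in monocytes. Between MET and Distal monocytes, 2 of 7 tested interferon-gamma induced genes rose, beside 1.48% of all genes tested, namely Cxcl10, a chemokine that attracts T cells (log2 fold change 2.78, SE 0.55, edgeR adjusted p = 0.00198), and Fcgr1, a high-affinity antibody receptor (1.36, SE 0.24, adjusted p = 0.000659). Of 11 tested type I interferon response genes 3 rose, namely Ifit3 (2.52, SE 0.41, edgeR adjusted p = 0.000659), Isg20 (1.78, SE 0.39, adjusted p = 0.00648) and Isg15 (1.79, SE 0.47, adjusted p = 0.0356). None of 6 tested signalling genes and none of 2 tested other GTPases of the families was called, and no gene of these lists fell. The median log2 fold change was 0.66 for the type I list, 0.42 for the other induced genes and 0.00 over all 2098 genes.

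In MET against Distal macrophages, where 9.54% of all genes tested were called, 2 of 7 tested interferon-gamma induced genes and 1 of 7 type I response genes rose. These were the proteasome subunits Psmb10 (log2 fold change 2.50, edgeR adjusted p = 0.00553) and Psmb9 (2.14, adjusted p = 0.0289) and the ubiquitin-like Isg15 (2.89, adjusted p = 0.036). In Pre-MET against Normal monocytes 2 of 8 tested interferon-gamma induced genes fell, Cd274 and Fcgr1 (log2 fold changes -3.07 and -1.31, edgeR adjusted p = 0.0205 and 0.0171), and 2 of 16 tested type I response genes, Isg20 and Rtp4 (-1.46 and -1.18, adjusted p = 0.0394 and 0.0275), while none of 7 tested other GTPases of the families was called, beside 4.32% of all genes tested. Here too the group and the batch cannot be told apart.

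Of the 10 genes whose pattern over the 26 labels was most like the 8 members, 5 belong to the lists used here (Gm12250, Ifi47, Usp18, Ifit3 and Cxcl10). By Pearson's r of log2(mean CPM + 10) with the mean of the members, over 13345 genes and as a description with no test, Gm12250 (r = 0.901) and Ifi47 (r = 0.856), both of the immunity-related GTPase family, came first. Usp18 (0.837), Herc6 (0.805), Rnf213 (0.804), Ifnar1 (0.804), Ifit3 (0.803), Parp14 (0.778), Cxcl10 (0.774) and Ifi206 (0.768) followed. Among the members, Irgm1 was closest to the mean of the other 7 (r = 0.858), followed by Gbp3 (0.799) and by Igtp and Iigp1 (0.761 each), and Gbp5 was farthest (0.514). The labels share libraries and sequencing depth, so these values describe likeness only.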

How the data were processed

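Cells were sorted into 384-well plates and 3' mRNA was captured with poly(T) primers. According to the study's methods, the authors mapped reads to mm10 with HISAT (version 0.1.6), excluded reads with multiple mapping positions, assigned reads to exons, and counted UMIs; bcl2fastq 2.15.0.4 is listed in the submitters' processing notes. The deposited tables give UMI counts, not normalized by the authors, for every gene in each well of 148 plates, and the authors' cell labels come with them. Cells labelled Tumor, Erythrocytes or Outlier were left out (595 of 24020), as were the 92 ERCC rows, which hold 0 UMIs.

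Counts were summed per mouse, tissue and label or lineage (7 lineages) where at least 10 cells were present. The comparisons were tested with edgeR 4.0.16 (R 4.3.3; quasi-likelihood test, TMM, filterByExpr, no block) on all genes, with at least 3 sums per tissue and Benjamini-Hochberg adjusted p below 0.05 as a call; the test was tried on simulated data first. Standard errors are the log2 fold change divided by the root of the test's F value. Replicates are separate mice. MET and Distal tissue, and Core and margin, come from the same mice: deviations of same-mouse monocyte sums correlated at 0.2518 and 0.419 on average, against -0.01603 and -0.02679 for different mice. Alternatives were DESeq2 1.42.0, RLE size factors, no filter, other cell minimums, deeper cells, a mouse block and a batch term. Comparisons with Relapse-free lungs were also run without the plates gated on photoactivated cells. Leaving out 1 mouse at a time was run in tissues with 5 or fewer sums of a lineage. For the lineages with a called member it was run in turn for every sample (chosen after seeing the data). Named genes were the 8 members, list genes that were called, and the 10 genes most like the members over labels, with a pseudocount of 10 CPM. Tables were handled in Python 3.11.15 with pandas 2.3.3, numpy 2.4.6, scipy 1.17.1 and matplotlib 3.10.9. Results on 1 gene of the interferon-gamma signalling list are not reported here. The members and lists were chosen with earlier results of these data known.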

Additional observations from a re-analysis of the deposited data

Results flagged for a closer look

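Of 53 groups of 4 to 10 samples examined, 7 had a sample that stood apart from the rest by Dixon's criterion, which chance gives in about 1 of 20 groups. Gbp3 in Relapse-free monocytes was at 0 CPM in mouse 29, with the next sample at 44.18. Gbp2 in Distal neutrophils was at 830.4 CPM in mouse 34 (next 408.5), and Gbp7 in Distal neutrophils at 808.5 CPM in mouse 31 (next 302). Igtp in margin T cells was at 97.6 CPM in mouse 33 (next 320.9), and Igtp in margin monocytes at 370.6 CPM in mouse 36 (next 103.3). Igtp in Primary monocytes was at 471.8 CPM in mouse 38 (next 197.8), and Gbp7 in Core macrophages at 254.8 CPM in mouse 24 (next 138.3).

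The cells left out of the comparisons also held transcripts of the 8 genes, and the 592 empty wells of the plates held 0.0118 such UMIs per well. The 94 cells labelled Tumor held 372 UMIs of them, 3.96 per cell and a summed level of 717.8 CPM. The 336 cells labelled Erythrocytes held 250 UMIs (0.744 per cell, 623.2 CPM), beside a mean of 59670 CPM of neutrophil markers and 8795 of erythroid markers, and the 165 cells labelled Outlier held 160 UMIs (0.97 per cell, 471.4 CPM). No test was run on these values.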

How the results depend on the processing

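By DESeq2 and by edgeR with RLE size factors, as many of the 8 genes were called as in each comparison of lineages above. Between MET and Distal tissue 2 calls became 7 with no filter on low counts (Gbp2, Gbp4, Igtp and Iigp1 in monocytes, Gbp2, Igtp and Irgm1 in macrophages), 3 with a batch term, 1 with the mouse as a block (2 when the same genes were tested) and 0 on cells with at least 1000 UMIs (1 when the same genes were tested). Over all lineages, leaving out 1 mouse at a time was run for 6 Distal mice, those in lineages with 5 or fewer sums, and gave 0 to 2 calls, with 0 without Distal mouse 36 and 1 without Distal mouse 27 or 37, because genes then failed the filter. Without Distal mouse 17, 23 or 28, Igtp in monocytes failed the filter and Igtp in macrophages, which rests on 2 or fewer Distal UMIs, passed it and was called. With the same genes tested, each of these kept both monocyte calls. In monocytes alone each of the 27 samples was left out: Gbp2 was called in 27 fits and Igtp in 25 with the same genes tested, and with the filter applied anew Gbp2 in 26 of 26 fits and Igtp in 12 of the 13 that tested it. Between Core and margin 0 calls became 1 with no filter (Gbp4 in monocytes) and 1 with the mouse as a block (Gbp2 in monocytes, also with the same genes, but in 2 of 5 fits when 1 paired mouse was left out); leaving out each margin mouse gave 0 to 0 over all lineages, and leaving out each of the 13 Core mice called no member in monocytes. Between Primary and Core 1 call became 3 with no filter (Gbp3 in T cells, Gbp7 and Iigp1 in macrophages), 0 on cells with at least 1000 UMIs (0 with the same genes) and 0 with a batch term; leaving out each Primary mouse gave 1 to 1 over all lineages, and leaving out each of the 14 macrophage samples kept the Gbp7 call in 14 fits with the filter applied anew and in 13 with the same genes, while Iigp1 was called in 2. Between Distal and Relapse-free tissue 0 calls became 1 with no filter (Iigp1 in monocytes). Between lineages 0 calls became 1 with the mouse within lineage as a block (Igtp, monocytes minus T cells). The mouse block changed no other call where it was fitted; it was not fitted for DC, Neut_Ifit3 and T_CD4_S100a4 between MET and Distal tissue, nor for macrophages and Mac_Gpnmb between Core and margin. The genes most like the members with a pseudocount of 1 CPM shared 6 of 10.

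Signs turned only for values that were not called. Gbp3 in Pre-MET against Normal monocytes was -0.10 on cells with at least 1000 UMIs, -0.03 without Pre-MET mouse 8 and -0.19 without Normal mouse 3, within a range of -0.19 to 1.13 over the mice left out. With a batch term, Gbp2 and Iigp1 in Primary against Core T cells were -0.43 and -1.98. Igtp in Primary against Core macrophages was -0.10 with 20 cells per sum, -0.00 on cells with at least 1000 UMIs and -0.13 without Primary mouse 38, -0.04 without Core mouse 37 and, with the filter applied anew, -0.02 without Core mouse 26 (0.02 with the same genes), within a range of -0.13 to 0.31 over the mice left out and both sets of genes. The cause of these turns was not tested. With about 1133 UMIs in the median cell, 4 of the 8 genes fell below the filter in MET monocytes, and their levels rest on few molecules.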
